A study of Rattus norvegicus with 6 samples.

Results

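The miR-29 family is a group of 3 mature microRNAs, miR-29a, miR-29b and miR-29c, known for repressing mRNAs of collagens and other matrix proteins. They were measured here by RT-qPCR in left ventricular tissue of OLETF rats with diabetes and of LETO control rats. The members were the assays named exactly miR-29a, miR-29b or miR-29c, which were 3 of 584 miRNA assays, all 3 with mouse (mmu) assay names. Assays of the passenger strands, written with an asterisk, were not counted as members. OLETF is an inbred rat strain that becomes obese and develops type 2 diabetes, and LETO is the related strain that serves as its non-diabetic control. There were 3 OLETF hearts labelled as diabetes and 3 LETO hearts labelled as healthy control, and the labels name no treatment, age or genetic change beyond strain. As every diabetic rat was OLETF, diabetes and strain cannot be told apart. The labels do not say whether samples came from separate litters or days, so p-values measure the spread between these 6 samples.

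A microRNA is cut as a short duplex from a hairpin precursor, and the strand loaded into the Argonaute protein pairs with target mRNAs mainly through its seed, bases 2 to 8. In heart, miR-29 is known as a family enriched in fibroblasts over cardiac muscle cells, and lower miR-29 has been linked to higher collagen mRNA in mouse. Because the members share a seed, their predicted targets largely overlap.

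The mature sequences are shown because the assays must tell nearly identical RNAs apart. They are the RefSeq rat sequences (GRCr8 build), 5′ to 3′, with the seed in capitals.
miR-29a: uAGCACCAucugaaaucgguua
miR-29b: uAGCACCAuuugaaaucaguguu
miR-29c: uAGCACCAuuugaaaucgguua
All 3 members had an entry in the RefSeq table. Among its 693 mature names, these 3 were the ones that held the seed AGCACCA. With positions counted from 1 at the 5′ end, miR-29a and miR-29c were identical at 21 of 22 bases and differed by C10U (miR-29a base first). miR-29c and miR-29b were identical at 19 of 22 compared bases and differed by G18A, U21G and A22U (miR-29c base first). How far each assay also amplifies the other members was not tested.

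The family comes from 4 hairpin genes at 2 loci. Mir29a (chr4:60617955-60618042) and Mir29b1 (chr4:60618334-60618414) lie on the minus strand of chromosome 4, with 291 bases between them. Mir29b2 (chr13:109098831-109098911) and Mir29c (chr13:109099359-109099446) lie on the plus strand of chromosome 13, 447 bases apart. Mir29b2 and Mir29c lie within the span of a RefSeq long non-coding RNA gene, LOC102550527. Mature miR-29b is identical from Mir29b1 and Mir29b2, so its assay does not separate the loci. Mature miR-29a and miR-29c each have 1 hairpin gene.

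All 3 members were measured in all 6 samples, in 1 well per sample on the same card (card A, the first of 2 cards). The raw value is the threshold cycle (Ct), the PCR cycle at which a well crosses the detection threshold. Wells with more template cross earlier, and a cycle equals 1 log2 unit where the product doubles at every cycle. miR-29a had a Ct of 22.4, 22.4 and 21.3 in OLETF replicates 1, 2 and 3, against 23.5, 23.1 and 19.0 in LETO replicates 1, 2 and 3. miR-29c had a Ct of 27.8, 27.6 and 27.1 in OLETF, against 29.5, 27.6 and 23.2 in LETO. miR-29b had a Ct of 29.9, 30.3 and 28.8 in OLETF, against 30.2, 30.1 and 26.9 in LETO. LETO replicate 3 was thus the sample with the lowest Ct for every member. Among the other 5 samples the Ct values of the strains overlapped for miR-29b and miR-29c, and for miR-29a the OLETF values lay below those of LETO replicates 1 and 2.

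**Figure D1:**
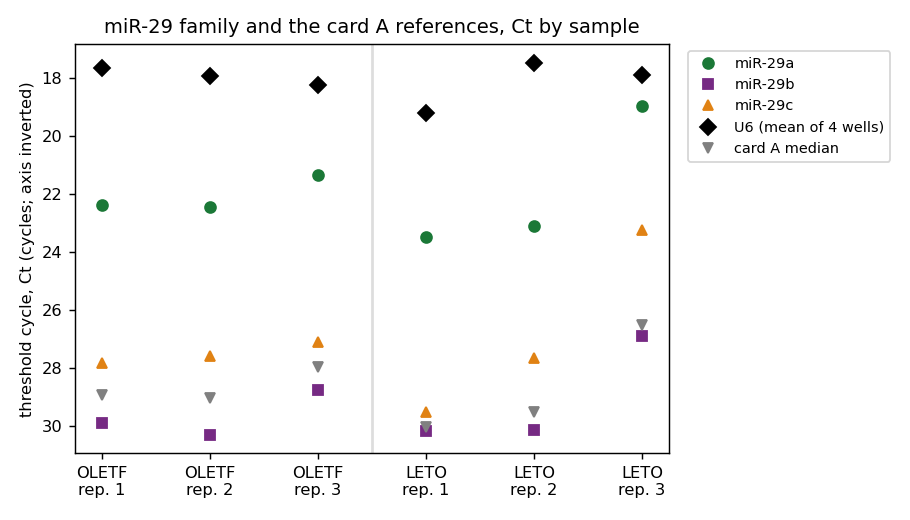
Ct of miR-29a, miR-29b and miR-29c (y axis, cycles, inverted so that more RNA is higher) in the 3 OLETF and 3 LETO samples (x axis), with the mean of the 4 U6 wells and the median Ct of card A. All 3 members and the card median stand highest in LETO replicate 3, where miR-29a has a Ct of 19.0, while U6 there (17.9) lies among the other samples.

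LETO replicate 3 stood apart over the whole array and not for miR-29 alone. Replicate numbers here are those of the sample titles, and in the deposited tables LETO replicates 1, 2 and 3 are the columns named LETO2, LETO3 and LETO4. It measured 292 assays (Ct under 35), against 197 to 228 in OLETF and 202 and 207 in the other LETO samples. Its card A median Ct was 26.5, against 28.9, 29.0 and 28.0 in OLETF and 30.0 and 29.5 in the other LETO samples. The U6 snRNA wells, the authors' endogenous control, did not follow. U6 on card A had a Ct of 17.9 ± 0.290 in OLETF and 18.2 ± 0.908 in LETO (SD, n = 3 each). A level relative to U6 therefore carries the whole shift of a sample, while a level relative to the card median carries what sets the miRNA apart from the other assays of its card. Each result is given with both references. In tissue extracts, fewer cells of a type and less RNA per cell cannot be told apart.

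The order of the members was the same in all 6 samples. miR-29a stood highest, miR-29c followed and miR-29b was lowest. Amplification efficiencies were not given, so these are differences in Ct between assays and not ratios of RNA molecules. miR-29b minus miR-29a was -7.50, -7.86 and -7.42 log2 units in OLETF, and -6.71, -7.03 and -7.92 in LETO. miR-29c minus miR-29a was -5.47, -5.15 and -5.77 in OLETF, and -6.05, -4.56 and -4.29 in LETO. miR-29b minus miR-29c was -2.04, -2.71 and -1.65 in OLETF, and -0.65, -2.47 and -3.63 in LETO. The step between miR-29c and miR-29b averaged -2.19 ± 1.01 (SD, n = 6) and was the least steady. In LETO replicate 1 it did not exceed 0.688 cycles, the SD of a difference between 2 single wells, as estimated from 189 pairs of wells of the same assay on card B.

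**Figure D2:**
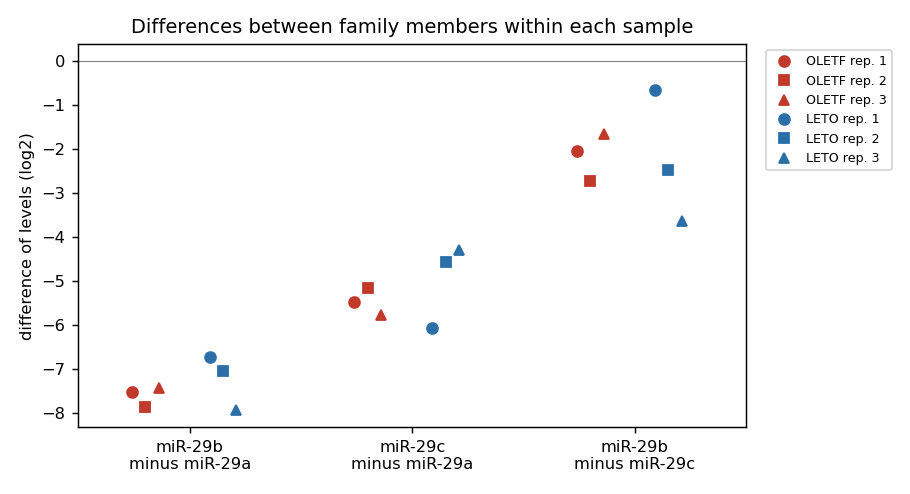
Differences of level between family members within each sample (y axis, log2 units) for the 3 pairs (x axis), OLETF in red and LETO in blue, with symbols for replicates. All differences are below 0, the OLETF points lie close together, and the LETO points spread more widely, from -0.65 to -3.63 for miR-29b minus miR-29c.

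miR-29a was among the most abundant miRNAs of card A by Ct. It ranked 7th, 7th and 8th of 150, 145 and 165 measured assays in OLETF, and 8th, 9th and 3rd of 144, 145 and 202 in LETO. miR-29c ranked between 40 and 54 in OLETF and between 24 and 56 in LETO. miR-29b ranked between 74 and 81 in OLETF and between 66 and 71 in LETO. These ranks are across assays and share the caveat on efficiency.

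Over all 6 samples the within-sample differences did not separate the strains. Since all 3 assays lie on card A, these differences are free of the choice of U6 or card median. miR-29b minus miR-29a averaged -7.59 ± 0.23 in OLETF and -7.22 ± 0.63 in LETO (SD, n = 3 each), a change of -0.38 (SE 0.387, exact permutation p = 0.5). miR-29c minus miR-29a averaged -5.46 ± 0.31 in OLETF and -4.97 ± 0.95 in LETO, a change of -0.49 (SE 0.577, n = 3 each, exact permutation p = 0.4). miR-29b minus miR-29c averaged -2.13 ± 0.54 in OLETF and -2.25 ± 1.50 in LETO, a change of 0.12 (SE 0.921, n = 3 each, exact permutation p = 1). Over these 3 pairs the smallest Benjamini-Hochberg adjusted p was 0.75. With 3 against 3 samples a two-sided exact permutation test cannot go below 0.1. Without LETO replicate 3 the changes were -0.73, -0.16 and -0.57, so that sample moved the size of all 3. The sign of the last also turned without OLETF replicate 3 (-0.12). Without LETO replicate 3 the groups did not overlap for miR-29b minus miR-29a (exact permutation p = 0.1). The same held for miR-29c minus miR-29a without LETO replicate 1 (-1.04, exact permutation p = 0.1). For every other pair and left-out sample the exact permutation p was 0.3 or more.

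Relative to U6, none of the members passed the test between strains. miR-29a had levels of -4.72, -4.49 and -3.11 log2 units in OLETF, against -4.26, -5.62 and -1.07 in LETO. miR-29b had -12.23, -12.35 and -10.53 in OLETF, against -10.97, -12.65 and -8.99 in LETO. miR-29c had -10.19, -9.64 and -8.88 in OLETF, against -10.32, -10.18 and -5.36 in LETO. For each member the OLETF and LETO values overlapped, and the highest value was that of LETO replicate 3. The difference, OLETF minus LETO, was -0.46 for miR-29a, -0.84 for miR-29b and -0.95 for miR-29c. Each had an SE of 1.38 and an adjusted p of 0.997 (limma, n = 3 each, adjusted over 193 tested assays). The SE is the same because limma drew it from all assays. The 95% limma interval of miR-29a ran from -3.17 to 2.25, which leaves room for a change of several cycles either way. Of all 193 assays tested, 0% were called at an adjusted p under 0.05 and 1.04% had an unadjusted p under 0.05.

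Relative to U6, 3 of 3 members lay below 0, where 80.8% of all tested assays and 77.9% of those on card A did, and the median of all assays was -0.60. That direction was reversed by leaving out LETO replicate 3 alone. miR-29a then differed by 0.83, miR-29b by 0.10 and miR-29c by 0.68, above 0 for each member. OLETF replicate 3 was shifted the same way. Its card A median stood 9.74 cycles after U6, against 11.29 and 11.07 in OLETF replicates 1 and 2. With replicate 3 of each strain left out, miR-29a and miR-29c lay at 0.33 each, and miR-29b at -0.48. With the whole-array median as reference miR-29a also lay above 0 (0.026), and with the other small RNA controls miR-29a (0.39) and miR-29b (0.016) did.

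**Figure D3:**
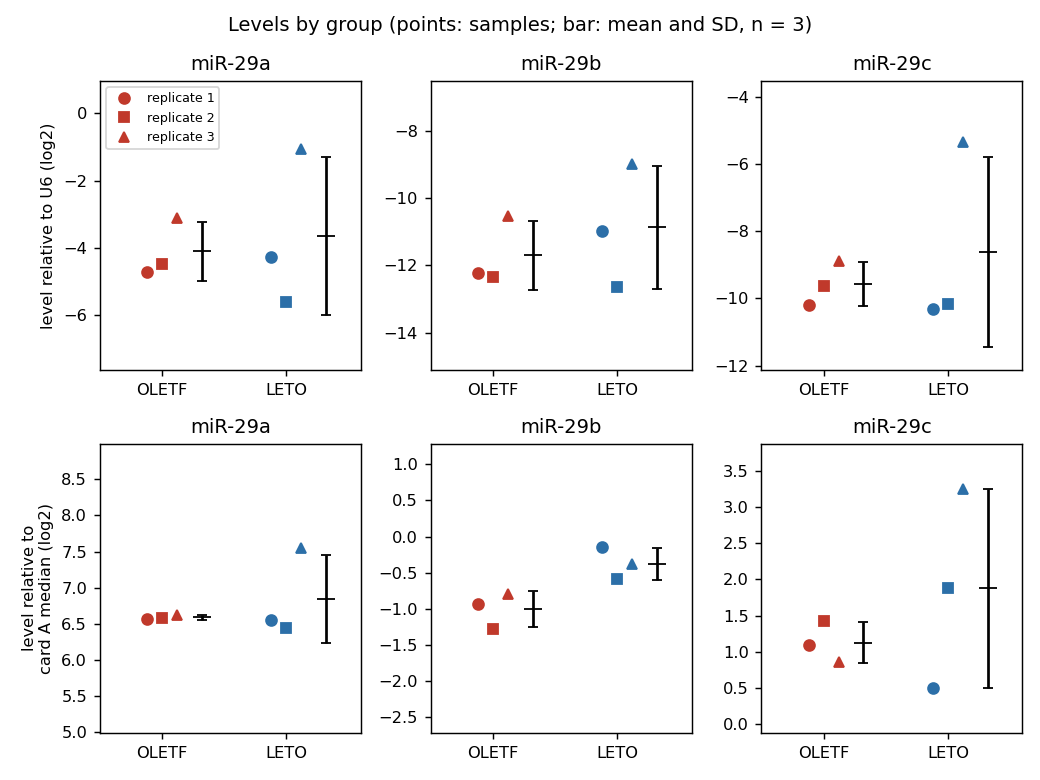
Levels of the 3 members (y axes, log2 units) in OLETF (red) and LETO (blue), relative to U6 in the upper row and to the card A median in the lower row, with points for samples and black bars for mean and SD (n = 3 each). Relative to U6 the groups overlap for every member, and relative to the card median the miR-29b groups do not overlap (OLETF -1.28 to -0.79, LETO -0.59 to -0.15).

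Relative to the card median, none of the members passed the test between strains either. The reference here is the median Ct, in each sample, of the card A assays measured in all 6 samples. miR-29b had levels of -0.94, -1.28 and -0.79 in OLETF, against -0.15, -0.59 and -0.38 in LETO. Every OLETF value lay below every LETO value, in 9 of 9 pairs of samples. The closest, OLETF replicate 3 and LETO replicate 2, lay nearer to each other than 0.486 cycles, the SD of a single well estimated on card B. The means were -1.01 ± 0.25 in OLETF and -0.37 ± 0.22 in LETO (SD, n = 3 each). The difference was -0.63 (SE 0.356, 95% limma interval -1.45 to 0.18), a ratio of 0.645. It did not pass the test over all assays (limma adjusted p = 0.632, exact permutation p = 0.1, the smallest that 3 against 3 allows). Groups that do not overlap with OLETF lower were found for 9.26% of the 162 assays measured in all 6 samples, and for 1 of the 3 members. Non-overlap with OLETF higher was found for 4.32% of these assays and for none of the members. The non-overlap of miR-29b was already known when the members were chosen, and gives no independent support. Its difference ran from -0.74 to -0.41 over the alternatives under this reference, and was -0.64 without LETO replicate 3. As the groups do not overlap, dropping, blocking or weighting samples could not change its sign. With other card medians or Ct limits, which could, it ran from -0.69 to -0.41.

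miR-29a was nearly constant relative to the card median, apart from LETO replicate 3. Its levels were 6.56, 6.58 and 6.63 in OLETF, against 6.56, 6.44 and 7.54 in LETO. The 5 samples other than LETO replicate 3 spanned 0.189 log2 units. Their spread is smaller than the SD of a single well, 0.486 cycles, estimated on card B. That estimate comes from wells of a later Ct (card B medians 27.7 to 30.7). It may not hold for miR-29a, at a Ct of 21.3 to 23.5 in these 5 samples. The SD over the OLETF samples was 0.035, the third lowest (rank 3) of 162 assays, whose median SD in OLETF was 0.412. The difference between strains was -0.26 (SE 0.408, limma adjusted p = 0.803, n = 3 each, 95% limma interval -1.19 to 0.68). It lay close to the median of all tested assays (-0.31), and was 0.091 without LETO replicate 3.

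miR-29c was the most variable member. Its levels relative to the card median were 1.10, 1.43 and 0.86 in OLETF, against 0.50, 1.88 and 3.25 in LETO. The LETO samples lay on either side of the OLETF samples, with LETO replicate 1 the lowest and LETO replicate 3 the highest of all 6. The difference was -0.75 (SE 0.647, limma adjusted p = 0.638, n = 3 each, 95% limma interval -2.23 to 0.73). Without LETO replicate 3 it shrank to -0.065, and without LETO replicate 1 it was -1.44. Over all 6 samples its SD was 0.978, rank 148 of 162 from the least variable assay, against ranks 36 for miR-29a and 35 for miR-29b. In LETO replicate 3, miR-29c exceeded its mean over the other 5 samples by 2.10 log2 units relative to the card median. That was the sixth largest excess (rank 6) of 162 assays, against a median of 0.316. The excess was 0.989 for miR-29a (rank 36) and 0.372 for miR-29b (rank 78). Relative to its own card median, LETO replicate 3 thus stood out most for miR-29c, less for miR-29a, and close to the median assay for miR-29b.

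In total, 3 of 3 members lay below 0 relative to the card median, where 67.4% of tested assays and 66.4% of those on card A did, and 0 of 3 passed. Among all assays, 0% were called at an adjusted p under 0.05, with 6.22% at an unadjusted p under 0.05 (limma, 12 of 193). The authors' deposited table gave OLETF over LETO ratios of 0.727 for miR-29a, 0.560 for miR-29b and 0.516 for miR-29c. They equal the U6-based differences given above, being computed from the same Ct values, and so carry the same dependence on LETO replicate 3.

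**Figure D4:**
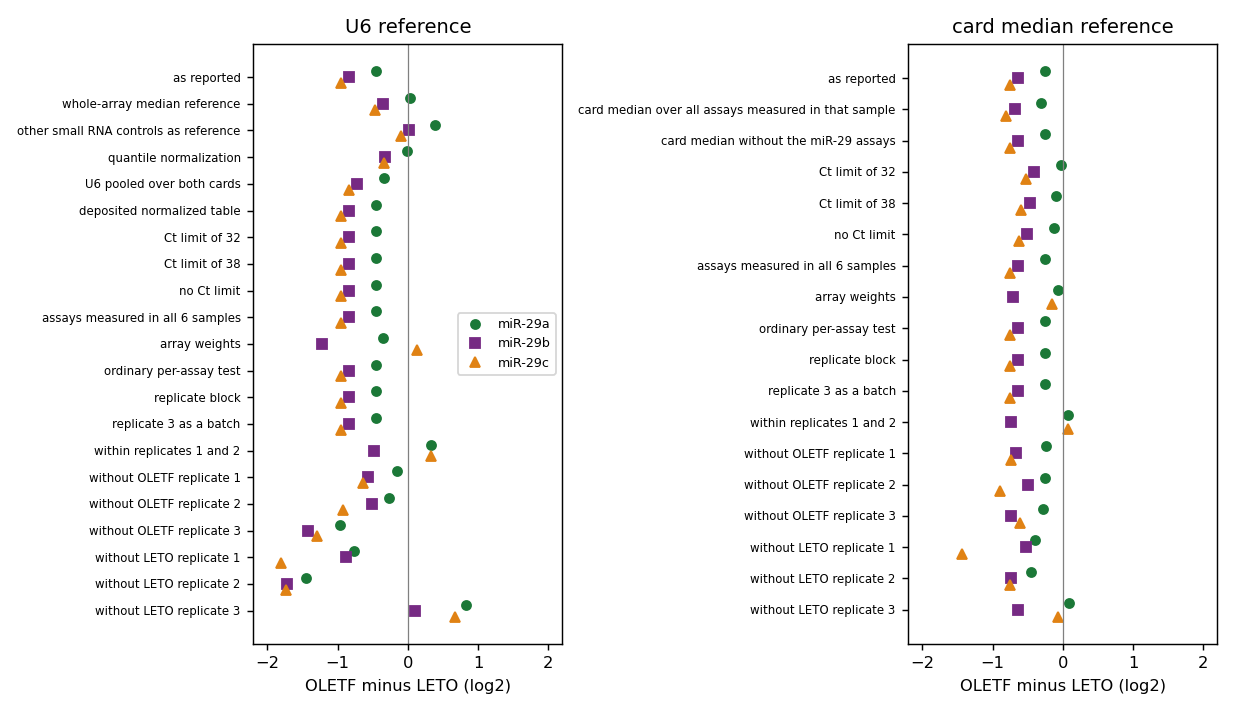
Difference of miR-29a (circles), miR-29b (squares) and miR-29c (triangles), OLETF minus LETO (x axis, log2 units), as reported and under each alternative setting (rows), with U6 on the left and the card median on the right. With U6 all 3 members lie above 0 without LETO replicate 3, and with the card median miR-29b stays below 0 in every row while miR-29a and miR-29c reach 0. As its groups do not overlap there, rows that drop, block or weight samples could not bring miR-29b above 0.

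The passenger strands of the same hairpins were read by 5 further assays on card B, which give a view of the family in other wells. The rat sequences of the miR-29a and miR-29c passenger strands are shown because they do not share the family seed (bases 2 to 8 in capitals, RefSeq, GRCr8).
miR-29a*: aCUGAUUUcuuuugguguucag
miR-29c*: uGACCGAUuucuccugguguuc
miR-29a* and miR-29c* were determined in 12 of 12 wells each, at a Ct of 29.0 to 35.3. miR-29b* was determined in 3 of 6 wells in OLETF and 5 of 6 in LETO. miR-29b-2* was determined in 2 of 3 wells in OLETF and 1 of 3 in LETO, and miR-29b-1* in 0 of 6 wells. miR-29b-2* and miR-29b-1* were therefore not tested.

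Relative to the card B median, miR-29a* had levels of -3.89, -3.78 and -4.17 in OLETF, against -3.65, -3.37 and -2.25 in LETO. Every OLETF value lay below every LETO value, as for 9.26% of the 162 assays measured in all 6 samples. OLETF replicate 2 and LETO replicate 1, each a mean of 2 wells, were the closest. They lay nearer to each other than 0.486 cycles, the SD of a single well on card B. The difference was -0.85 (SE 0.449, limma adjusted p = 0.632, exact permutation p = 0.1, n = 3 each). Without LETO replicate 3 it was -0.43. miR-29c* had -3.81, -3.16 and -3.53 in OLETF, against -2.68, -3.88 and -1.56 in LETO. These groups overlapped, with a difference of -0.80 (SE 0.580, limma adjusted p = 0.634, n = 3 each), which was -0.22 without LETO replicate 3. miR-29b*, tested on 2 samples per group (OLETF replicates 1 and 3, LETO replicates 1 and 2), differed by -0.20 (SE 0.748, limma adjusted p = 0.890). LETO replicate 3 fell out of this test at a mean Ct of 35.05, and OLETF replicate 1 and LETO replicate 1 rested on 1 of 2 wells. Thus 3 of 3 tested passenger strands lay below 0 relative to the card median, where 69.8% of tested card B assays did. Counts over these strands mix sample sets, as miR-29b* was read without LETO replicate 3. Relative to U6 the differences were -1.62 for miR-29a*, -1.56 for miR-29c* and 0.35 for miR-29b* (limma adjusted p = 0.997 each), so 2 of 3 lay below 0, where 88.7% of tested card B assays did. For miR-29a* this was -0.19 without LETO replicate 3 and -2.95 without LETO replicate 2, and for miR-29c* 0.018 and -3.34. With array weights, which count samples unequally, miR-29a* and miR-29c* passed relative to U6 (adjusted p = 0.0302 and 0.00470, limma). They were among 30 of 193 assays that did, and none of miR-29a, miR-29b and miR-29c was. The weights were 3.25, 3.70 and 0.354 for OLETF replicates 1, 2 and 3, and 3.02, 0.329 and 0.237 for LETO replicates 1, 2 and 3, so the LETO side of that fit rested mostly on 1 sample.

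Within samples, miR-29a stood above its passenger strand by 12.91, 12.45 and 11.80 log2 units in OLETF, and by 10.79, 11.93 and 10.96 in LETO, relative to U6 of each card. miR-29c stood above miR-29c* by 7.37, 6.68 and 5.39 in OLETF, and by 3.77, 7.88 and 5.98 in LETO. The change between strains was 1.16 for the miR-29a duplex (exact permutation p = 0.2, n = 3 each) and 0.61 for the miR-29c duplex (exact permutation p = 0.7, n = 3 each). With the card medians as reference these were 0.59 and 0.044. The comparison of strands was chosen after seeing the data and spans the 2 cards.

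**Figure D5:**
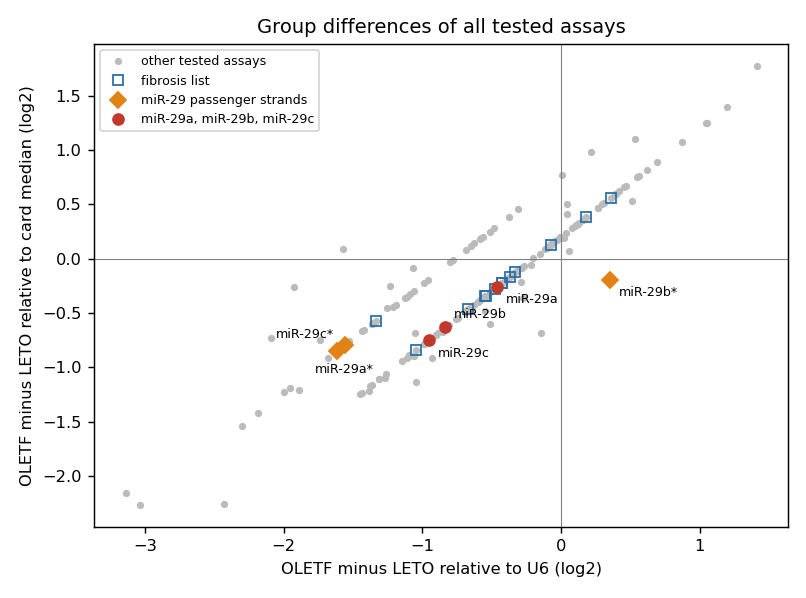
Difference between OLETF and LETO of each of the 193 tested assays, relative to U6 (x axis, log2 units) and to the card median (y axis, log2 units), with the miR-29 members, 3 passenger strands and the fibrosis list marked. The members lie within the cloud of other assays, at -0.46 to -0.95 on the x axis and -0.26 to -0.75 on the y axis.

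Among card A assays the members' differences were not extreme. Ranked from the most negative of 140 tested card A assays, miR-29c was at rank 26, miR-29b at 36 and miR-29a at 74 with U6, and at ranks 23, 33 and 73 with the card median. A list of 16 other miRNAs linked to fibrosis was set beside the family. It was not divided by whether a miRNA is linked to more or to less fibrosis, so its counts carry no direction for fibrosis. Some of its members, such as miR-21 and miR-133a, are also among the cell type markers below, so these lists are not separate. Of its names, 15 had an assay and 13 were tested. With U6, 11 of 13 lay below 0 (median -0.43), against 80.8% of all assays (median -0.60), and 0 of 13 passed. That count was 3 of 13 without LETO replicate 3, where 22.5% of all assays lay below 0. Relative to the card median, 10 of 13 lay below 0 (median -0.22), against 67.4% of all assays (median -0.31), and 0 of 13 passed. Without LETO replicate 3 this count was 7 of 13 (median -0.058), where 72.5% of all assays lay below 0 (median -0.26).

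The list members with the highest level were miR-133a, a muscle miRNA known to repress connective tissue growth factor, and miR-24. Relative to the card median miR-133a averaged 11.16 ± 0.49 in OLETF and 11.38 ± 1.28 in LETO, and miR-24 averaged 7.55 ± 0.30 in OLETF and 7.42 ± 0.21 in LETO (SD, n = 3 each). The largest differences were those of miR-101a and miR-101b with either reference. miR-101a averaged -2.35 ± 0.40 in OLETF and -1.50 ± 0.05 in LETO, a difference of -0.84 in which the groups did not overlap. That held for 1 of the 13 tested list members, and with OLETF lower for 9.26% of the 162 assays measured in all 6 samples. miR-101b, on card B, averaged 1.27 ± 0.16 in OLETF and 1.84 ± 0.56 in LETO, a difference of -0.57 with overlapping groups. None of these 4 passed (limma).

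Markers of cell types that a ventricle sample can hold were read from the same cards. Of 4 fibroblast-enriched assays, 3 were measured in all samples (miR-21, miR-199a-3p and miR-214) and miR-199a-5p in 1. The summed fibroblast level relative to the card median ranged from 4.11 to 7.77 in OLETF and from 4.77 to 8.33 in LETO, on a linear scale where 1 equals the median assay. Groups overlapped for each of the 3. With either reference 2 of 3 lay below 0, where 80.8% of all assays did with U6 and 67.4% with the card median. The 7 cardiac muscle assays cover 6 miRNA names, as miR-1 has a rat and a mouse assay. Of these 7 assays, 7 lay below 0 with either reference, where 80.8% of all assays did with U6 and 67.4% with the card median. Their median relative to the card median was -0.34, against -0.31 for all assays, and 0 of 7 passed. For 2 of them, the rat miR-1 assay (-0.54) and miR-499 (-0.90), the groups did not overlap relative to the card median, as for miR-29b and for 9.26% of all assays measured in all samples. The mouse miR-1 assay differed by -1.11 relative to the card median, with overlapping groups (SD 0.57 in OLETF and 1.40 in LETO). The summed cardiac muscle level ranged from 1695 to 3237 in OLETF and from 1089 to 4777 in LETO. It is mostly miR-133a, which averaged 11.16 in OLETF and 11.38 in LETO (log2). The next highest, the rat miR-1 assay, averaged 5.85 and 6.39. The endothelial miR-126-3p and miR-126-5p differed by 0.14 and -0.56, and their summed level ranged from 472 to 730.3 in OLETF and from 427 to 776 in LETO. Of 5 leukocyte assays 4 were tested, with a summed level of 113 to 226 in OLETF and 62.5 to 262 in LETO. Relative to the card median 1 of these 4 lay below 0 and 3 above (median 0.14), where 67.4% of all assays lay below 0. With U6, 3 of 4 lay below 0, where 80.8% of all assays did, and 0 of 4 passed with either reference. The endothelial sum is mostly miR-126-3p and the leukocyte sum mostly miR-150, so the ranges of these sums say little on the other markers. Of the smooth muscle markers miR-143 and miR-145, 2 of 2 lay below 0 with either reference, beside the same shares of all assays, and 0 of 2 passed. The 1 red cell marker tested, miR-486, lay above 0 with either reference and did not pass. The part of cell composition in the value of miR-29b was not tested.

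The assays whose level relative to the card median ran most like that of each member over the 6 samples were found by Pearson's r among 159 other assays measured in all samples. For miR-29a they were miR-22 (r = 0.959), miR-143 (r = 0.937) and miR-674* (r = 0.936). For miR-29b they were miR-101a (r = 0.932), miR-499 (r = 0.930) and miR-490 (r = 0.930). Among these, miR-101a and miR-499 were lower in each OLETF sample than in each LETO sample, as miR-29b was and as were 9.26% of the 162 assays. Since they were picked for running like miR-29b, this is not a separate observation. For miR-29c they were miR-22* (r = 0.972), miR-29a* (r = 0.909) and miR-106b (r = 0.886). The r values listed are the highest of many over 6 samples, and are given as descriptions.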

How the data were processed

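MicroRNAs of 3 OLETF and 3 LETO left ventricles, from frozen hearts, were measured on a rodent TaqMan array, per the series' design text. Per the labels' protocols, heart RNA was isolated and copied to cDNA with a pool of stem-loop primers, PCR ran in a 7900HT instrument, and U6 served as control. Baseline and threshold settings are not given in the sources used here. The first deposited table holds a Ct score per well, 768 wells per sample, with unamplified wells marked. The deposited normalized table holds the authors' delta Ct, a log2 value with its sign reversed. For the 3 members it equalled Ct minus mean U6 Ct of the card within 1.25e-06. The third deposited table holds the authors' linear ratio of OLETF over LETO.

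Determined wells of the same assay were averaged within a sample, and means at or above a Ct of 35 counted as not measured. Levels were U6 Ct (mean of 4 wells per card) or card median Ct (over assays measured in all 6 samples) minus Ct. Assays measured in at least 2 samples of each group, 193 of 584, were compared with limma 3.58.1 in R 4.3.3 (lmFit, eBayes, two-sided, Benjamini-Hochberg, threshold 0.05). The fit was checked on simulated card median levels with independent noise. That check did not cover shifts of a whole sample, as seen with U6. Single values had exact permutation tests over samples. Named were the members, their passenger strands, per member the 3 assays with the highest r, and the fibrosis list members with the highest level (2) or largest difference (2 per reference). The members and lists were chosen with earlier results of these data known. The replicate numbers of the labels were not taken as pairs, because the labels do not say what same-numbered samples share. Correlations of same-numbered samples' deviations from their group means were -0.088, 0.23 and 0.62 with U6. With the card median they were 0.094, 0.22 and 0.50, so pairing was not excluded. Fits with a replicate block are given among the alternatives. Alternatives changed the reference, Ct limit, filter, model, block and samples. Precision was limited by 1 well per sample and 3 samples per group.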

Additional observations from a re-analysis of the deposited data

How the results depend on the processing

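No member passed an adjusted p of 0.05 (limma) in any alternative. The number of assays past it stayed at 0 with the card median. With U6 it was 1 with the replicate block, 1 with replicate 3 as a batch, and 30 with array weights. With the whole-array median in place of U6, miR-29a lay above 0 (0.026). With the other small RNA controls in place of U6, miR-29a (0.39) and miR-29b (0.016) did. Relative to U6 within replicates 1 and 2, miR-29a and miR-29c lay above 0 (0.33 each) and miR-29b below 0 (-0.48). miR-29c also lay above 0 relative to U6 with array weights (0.13). With 1 sample left out, the U6 differences ran from -1.44 to 0.83 for miR-29a, -1.73 to 0.10 for miR-29b and -1.80 to 0.68 for miR-29c, above 0 without LETO replicate 3 (0.83, 0.10 and 0.68). Relative to the card median they ran from -0.46 to 0.091 for miR-29a, -0.74 to -0.49 for miR-29b and -1.44 to -0.065 for miR-29c. Within replicates 1 and 2, miR-29a was at 0.071, miR-29c at 0.070 and miR-29b at -0.74. The replicate block could not change the members' differences, as each replicate number holds 1 sample of each strain and all members were measured throughout. It could change their p-values (miR-29b -0.63, adjusted p = 0.418, limma), and changed no call of a member. Dropping 1 sample, the change of miR-29b minus miR-29a lay between -0.73 and -0.12, and that of miR-29c minus miR-29a between -1.04 and -0.16. The change of miR-29b minus miR-29c was -0.81 within replicates 1 and 2, where that of miR-29b minus miR-29a was also -0.81 and that of miR-29c minus miR-29a -0.00061. It lay between -0.57 and 0.92 when any 1 sample was dropped (-0.12 without OLETF replicate 3, -0.57 without LETO replicate 3).

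Signs also changed among the passenger strands. With the other small RNA controls miR-29a* lay at 0.35 and miR-29c* at 0.40. Relative to U6, miR-29a* lay between -2.95 and -0.19 and miR-29c* between -3.34 and 0.018 when 1 sample was dropped, the ends being without LETO replicate 2 and without LETO replicate 3. With array weights miR-29a* (-2.07) and miR-29c* (-2.51) passed relative to U6, in a fit whose LETO weights were 3.02, 0.329 and 0.237. miR-29b* took the other sign with the whole-array median in place of U6 (-1.15). Relative to U6 it also did with U6 pooled over both cards (-0.11), the deposited table (-1.78), array weights (-0.78), the replicate block (-1.05) and replicate 3 as a batch (-0.49). Relative to the card median it did with a Ct limit of 38 (1.45), no limit (1.45), array weights (0.31), the replicate block (1.29) and replicate 3 as a batch (0.47). The fibrosis list, in alternatives chosen after seeing the data, had 3 of 13 below 0 without LETO replicate 3 (22.5% of all assays), 5 with the whole-array median (62.2%), 1 with the other small RNA controls (20.7%) and 5 with quantile normalization (52.5%), relative to 11 with U6 (80.8%). The causes were not tested, beyond the fewer samples of the left-out fits.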

Other observations

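The authors' deposited table lists a ratio for wells in which little or nothing amplified. miR-29b-1* had 0 of 6 wells determined, and the authors' deposited table gave it a ratio of 0.985. Undetermined wells count there as a Ct of 40. The log2 of this ratio, -0.0216, equals the difference in U6 Ct of card B between the strains (-0.0216). miR-29b-2* had 3 of 6 wells determined, at a Ct of 35.1 and 34.9 in OLETF replicates 2 and 3 and of 31.6 in LETO replicate 3, and the authors' deposited table gave a ratio of 1.41. For the 2 wells of miR-29b* the authors' deposited table gave 0.241 and 0.377, and for those of miR-29a* 0.370 and 0.288.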
